A study of Homo sapiens with 9 samples.

Results

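The genes described here encode the extracellular matrix, the proteins that hold cells to it and to each other, and the enzymes that cut it. They were chosen by symbol, as collagens (COL), laminins (LAM), integrins (ITG), matrix metalloproteinases (MMP), ADAM and ADAMTS proteases, tissue inhibitors of metalloproteinases (TIMP), claudins (CLDN), cadherins (CDH), serpins (SERPIN), thrombospondins (THBS) and the plasminogen activators with their receptor (PLAT, PLAU, PLAUR). MMP10 was kept apart as the gene to compare them with. The symbols matched 92 of the 14884 genes that had a named probe set, and 74 of the 92 were tested among 12155 genes in all. Of the 74, 62 were proteins of these families, 5 antisense RNAs, 3 proteins named for binding integrins and 4 pseudogenes or noncoding genes. Where a gene had several probe sets, the brightest on average was used. Testing required a log2 intensity of 5 or more on at least 3 of the 9 arrays. The nearest genes inside that limit, by their third-highest log2 intensity, were CLDN10 at 5.02, MMP8 at 5.12 and TIMP4 at 5.17. The 18 genes that were not tested were 9 ADAM symbols, 4 claudins, MMP12, MMP13, MMP26, MMP27 and COL4A2-AS1, with median log2 intensities of 2.36 to 4.70. The nearest to the limit were ADAM30 at 4.83, ADAM28 at 4.79 and the antisense RNA COL4A2-AS1 at 4.68.

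The arrays measured EA.hy926, an established human line made by fusing umbilical vein endothelial cells with the A549 lung carcinoma line. The 3 groups, of 3 arrays each, were unexposed cells, cells given silver nanoparticles of 5 nm and cells given silver nanoparticles of 100 nm. Both exposures lasted 6 h at close to the LD50, the median lethal dose. The mass dose is not given in the sources used, and the bronchial epithelial line named in the series title was not analysed here. All cells came from the same line, so every group also carries the carcinoma parent's genome. The labels give a replicate number to each array but do not call the replicates separate cultures. The p-values therefore describe the spread among these 9 arrays, and that spread may be technical. Each array also gives 1 value for many cells, in which fewer cells of a type and less RNA per cell cannot be told apart.

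Matrix metalloproteinases are zinc enzymes, mostly secreted, that cut collagens, proteoglycans and other matrix proteins, and TIMPs block them by filling the active site. ADAM proteases sit in the cell membrane and release the outer parts of growth factors, cytokines and receptors, while ADAMTS proteins are secreted and act on matrix. Claudins seal tight junctions between endothelial or epithelial cells, cadherins join neighbouring cells, and integrins tie cells to matrix. MMP10, stromelysin 2, cuts proteoglycans and fibronectin and can activate other metalloproteinases, and endothelial cells are among its known sources.

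The gene for MMP10 lies on chromosome 11 in a cluster of 9 metalloproteinase genes, in the order MMP7, MMP20, MMP27, MMP8, MMP10, MMP1, MMP3, MMP12 and MMP13 in RefSeq. Of these, 7 had a named probe set and 4 were tested: MMP20, MMP8, MMP10 and MMP1. The 250 bases before the RefSeq start of MMP10 are shown because it is the gene that the members are compared with. Those of MMP8, a neighbour in the cluster, are shown because it was next by size of difference among the proteases compared. Those of MMP14 are shown because it had the lowest mean difference among those proteases. They run 5′ to 3′ on the gene's strand in the assembly GRCh38.p14, at chr11:102780629-102780878 (minus strand) for MMP10, chr11:102724955-102725204 (minus strand) for MMP8 and chr14:22836335-22836584 (plus strand) for MMP14. Capitals mark a match to GAANNTTC, a short form of the heat shock element, and to TGANTCA, the AP-1 site with any middle base.
MMP10: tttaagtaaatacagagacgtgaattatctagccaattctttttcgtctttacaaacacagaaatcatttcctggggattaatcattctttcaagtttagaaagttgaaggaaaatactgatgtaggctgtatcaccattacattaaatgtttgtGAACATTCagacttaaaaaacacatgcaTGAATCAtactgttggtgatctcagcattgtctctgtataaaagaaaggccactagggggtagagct
MMP8: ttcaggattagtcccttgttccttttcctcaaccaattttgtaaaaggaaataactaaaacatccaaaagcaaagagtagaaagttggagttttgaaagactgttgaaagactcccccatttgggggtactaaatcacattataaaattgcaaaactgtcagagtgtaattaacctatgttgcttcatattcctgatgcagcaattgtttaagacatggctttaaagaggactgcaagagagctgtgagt
MMP14: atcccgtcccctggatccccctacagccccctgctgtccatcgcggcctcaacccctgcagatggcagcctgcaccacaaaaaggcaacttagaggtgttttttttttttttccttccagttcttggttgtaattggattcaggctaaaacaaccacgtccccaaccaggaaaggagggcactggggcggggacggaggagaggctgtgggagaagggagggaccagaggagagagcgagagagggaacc
The MMP10 window held 1 match to each, 95 and 67 bases before the start, and the MMP8 and MMP14 windows held neither. The MMP20 window, not shown, also held 1 TGANTCA match, at position -112 from the start, and no GAANNTTC match. MMP20, a tested gene of the cluster, had a difference of 0.00 in each replicate number after the smaller particles. The windows of MMP11, MMP15, MMP21, MMP23B, MMP24, TIMP1, TIMP3 and TIMP4 held neither. No window was available for MMP1, also in the cluster, MMP16, MMP17, MMP19, MMP23A, MMP25, MMP28 or TIMP2. On both strands, GAANNTTC was found in 5.78% and TGANTCA in 6.57% of 35097 RefSeq windows of 250 bases. The form with any middle base was added after the MMP10 sequence was seen. The stricter AP-1 letters TGACTCA and TGAGTCA, found in 4.2% of windows, were in none of the 3 windows shown. Nor were the antioxidant letters TGACNNNGC (10.9% of windows) or the metal letters TGCACNC and TGCGCNC (24.8%). A match is a description of the letters and not a binding site.

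Across the arrays, median log2 intensity was 5.15 to 5.64. The limit of 5 for testing lay below every array median, so a tested gene need not be expressed. Arrays of the same replicate number held exactly equal values in 46.9% to 57.6% of probe sets, against at most 0.00373% between arrays of different numbers, so a difference within a number is exactly 0 for many genes and small differences may be hidden there. Differences were therefore taken from the control array of the same number as well as between group means. Of 16 endothelial markers, 11 were tested and all 11 were at or above 5 on every array, with a summed log2 intensity of 102 to 107 in controls, 100 to 105 after 5 nm particles and 102 to 107 after 100 nm particles. After 5 nm particles 8 of the 11 had a negative and 2 a positive mean difference, against 45.1% and 35.9% of all genes. Their median was -0.15, in a range from -0.38 for KDR to 0.04. In limma 0 passed, against 0.074% of all genes. Of 16 epithelial markers 12 were tested, and the keratins KRT7, KRT8 and KRT18 of the carcinoma parent were among them. Their differences were 7 negative, 3 positive and 2 zero, with a median of -0.01. Summed epithelial intensity was 76.6 to 84.3 in controls, 75.6 to 83.6 after 5 nm and 76.4 to 84.1 after 100 nm particles. Of 12 leukocyte and 12 fibroblast or smooth muscle markers, 5 and 3 had a named probe set, and 4 and 1 were tested. The low counts therefore do not show that the other markers were absent. The part of cell identity in the differences that follow was not tested.

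MMP10 itself had log2 intensities of 5.60, 5.93 and 6.49 in the unexposed cells of replicates 1, 2 and 3, 8.42, 9.38 and 8.97 after 5 nm particles, and 5.94, 5.93 and 6.21 after 100 nm particles. All 3 arrays of 5 nm cells lay above all 6 others, and the 100 nm and control arrays overlapped. Among all genes, 1.88% had 5 nm and control arrays that did not overlap, in either direction. MMP10 rose by 2.92 after 5 nm particles (95% interval 2.26 to 3.58, 7.57-fold; adjusted p = 0.00421 in limma), by 2.83, 3.46 and 2.48 within the numbers. With the replicate number as a block the adjusted p was 0.034 in limma, and over 35 alternatives it ranged from 0.00181 to 0.548, with 26 below 0.05. The call was lost with arrays centred on their medians (adjusted p = 0.0724 in limma) and with the block fitted to only the control and 5 nm arrays (0.548). With the block it was also lost without any 1 of the control or 100 nm arrays or without 5 nm replicate 1 (adjusted p = 0.0703 to 0.23 in limma). Against 100 nm cells the difference was 2.90 (95% interval 2.24 to 3.56, 7.46-fold; adjusted p = 0.00451, and 0.0389 with the block, in limma). This comparison and the first share the 5 nm arrays. After 100 nm particles MMP10 differed from control by 0.34, 0.00 and -0.28 within the numbers.

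None of the 74 matrix, adhesion and protease genes passed the threshold that MMP10 passed. In limma with Benjamini-Hochberg adjustment over all genes, 0 of 74 were called after 5 nm particles, where 9 genes in all (0.074%) were. After 100 nm particles 0 of 74 were called, against 0% of all genes, and between the particle sizes 0 of 74, against 0.0658%. With the replicate block the counts among the 74 were again 0, 0 and 0, against 0.65%, 0% and 0.617% of all genes. At these shares fewer than 1 called member would be counted in any of the comparisons even if members were called as often as other genes, so a count of 0 reads no differently from the background. At an unadjusted p under 0.05 the 5 nm comparison gave 0 members without the block and 3 with it (4.05%, against 14.3% of all genes): MMP14, TIMP2 and TIMP3. The same limit gave 0 members without and with the block for 100 nm cells.

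The sizes of the differences were small for nearly all members. After 5 nm particles 30 of the 74 had a positive mean difference from control, 24 a negative one and 20 were at exactly 0 in all 3 numbers, with a median of 0.00 and a range from -0.52 to 0.88. Over all 12155 genes, 35.9% were positive, 45.1% negative and 19.0% exactly 0, also with a median of 0.00. Members with a difference other than 0 numbered 38, 31 and 25 in replicates 1, 2 and 3, which is 51.4%, 41.9% and 33.8% of the 74. The corresponding shares of all genes were 55.2%, 59.4% and 44.5%. The 95% interval lay within 1 log2 unit of 0 on both sides for 68 of the 74 without the block and 72 with it. The exceptions with the block were CLDN1 and MMP8. Most of all 12155 genes had such an interval too, 10255 without the block and 11746 with it, so this is no trait of the members.

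No member had 5 nm arrays that all lay outside the control range, against 1.88% of all genes. Members higher than their control in all 3 numbers were ADAM17, CLDN12 and MMP1, 3 of 74 or 4.05%, against 8.03% of all genes. Those lower in all 3 were TIMP3, TIMP2, MMP14 and the antisense RNA CLDN10-AS1, 4 of 74 or 5.41%, against 13.4%. A difference past 0.5 in either direction in at least 1 number was found for ADAM17, ADAM20P1, CLDN1, CLDN12 and MMP8, 5 of 74 or 6.76%, against 13.2%. None of the 74 was higher by at least 1 log2 unit in all 3 numbers, against 0.222% of all genes, and MMP10 was.

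**Figure D1:**
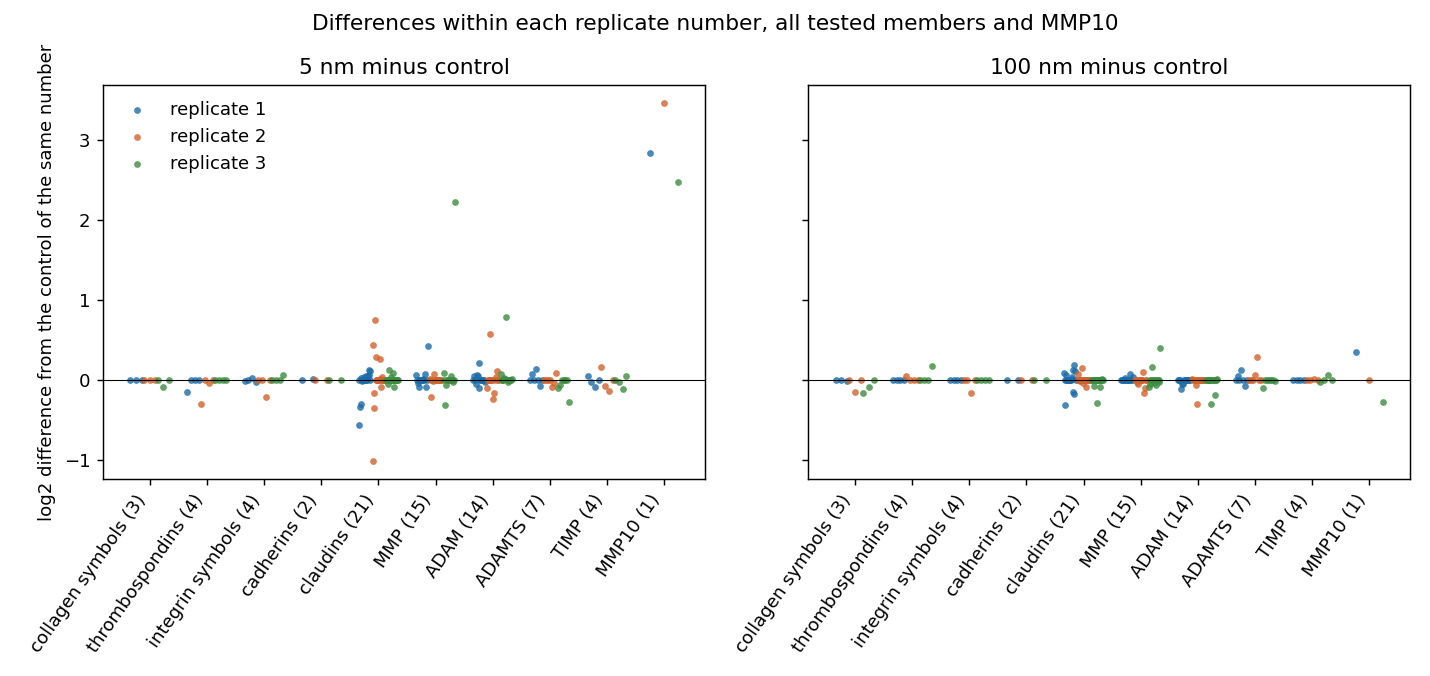
log2 difference from the control array of the same replicate number for each tested member, grouped by family with the number of genes in brackets, and for MMP10, after 5 nm (left) and 100 nm particles (right). Each point is 1 gene in 1 replicate. MMP10 lies at 2.48 to 3.46 on the left, and the highest member point is MMP8 in replicate 3, at 2.22.

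Among the other metalloproteinases, MMP8, the neutrophil collagenase, had the largest mean difference. Its log2 intensities were 5.08, 4.19 and 4.69 in controls, 5.51, 4.19 and 6.91 after 5 nm particles, and 5.12, 4.19 and 5.09 after 100 nm particles. The value of 6.91 stood alone, and in replicate 2 the 3 arrays did not differ at all. The mean difference was 0.88 (95% interval -0.38 to 2.15; adjusted p = 1 in limma, 0.432 with the block), and without the 5 nm array of replicate 3 it was 0.20. MMP27, another gene of the cluster and not tested because it passed the intensity limit on 1 array alone, reached 5.98 on that same array of replicate 3. Its control arrays held 4.26, 3.72 and 4.69, the other 5 nm arrays 4.26 and 3.72, and the 100 nm arrays 4.26, 3.72 and 4.40. MMP27 was singled out after its values were seen. MMP13, also in the cluster and not tested, was at 3.21, 3.27 and 4.38 in controls. It was at 3.40, 4.58 and 4.38 after 5 nm particles, and 3.21, 3.83 and 4.38 after 100 nm particles. MMP12, not tested either, held equal values in the 3 groups within each number.

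MMP1, the interstitial collagenase and the other cluster neighbour of MMP10, was at 12.56, 13.23 and 12.62 in controls, 12.62, 13.24 and 12.71 after 5 nm particles, and 12.56, 13.23 and 12.54 after 100 nm particles. It was higher in each number after 5 nm particles, by 0.06, 0.01 and 0.08, and the groups overlapped. With the block, the 95% interval of its mean difference of 0.05 ran from -0.04 to 0.14. MMP20, the enamel metalloproteinase beyond MMP27 and MMP8, had a control mean of 4.88 and a difference of exactly 0 in each number. The upper ends of the 95% intervals without the block, 2.15 for MMP8 and 0.69 for MMP1, lay below the mean difference of MMP10.

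MMP14, a membrane-anchored metalloproteinase that cuts fibrillar collagen, gave the lowest mean difference of the family. Log2 intensities were 9.39, 8.31 and 8.99 in controls, 9.35, 8.10 and 8.67 after 5 nm particles, and 9.39, 8.29 and 8.94 after 100 nm particles. Each 5 nm array was below its own control, by -0.04, -0.21 and -0.31, although the groups overlapped because the replicate numbers differed by more. The mean difference was -0.19, with a block interval of -0.34 to -0.04 and an adjusted p of 0.256 in limma with the block. The other membrane-anchored enzymes were within 0.04 of 0, at -0.02 for MMP15, -0.03 for MMP16, 0.03 for MMP17, 0.02 for MMP24 and -0.04 for MMP25. MMP11, MMP19, MMP20, MMP21, MMP23B and MMP28 were at exactly 0 in each number, and MMP23A, a near-identical copy of MMP23B with which it can share signal, was at 0.02. Control means were 5.94 for MMP11 and 6.16 for MMP23B. They were 5.29 for MMP19, 4.88 for MMP20, 4.85 for MMP21 and 5.15 for MMP28, no higher than the range of array medians (5.15 to 5.64). For genes this dim, a difference of 0 need not mean an expressed gene that stayed the same. For all 15 tested metalloproteinases the signs were 5 positive, 4 negative and 6 zero, with a median of 0.00. MMP2, MMP3, MMP7 and MMP9 were not analysed here, since none had a named probe set.

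The TIMPs, which inhibit these enzymes, had small differences of both signs. TIMP3, the matrix-bound inhibitor, was at 12.03, 11.61 and 10.96 in controls, 11.94, 11.47 and 10.84 after 5 nm particles, and 12.03, 11.63 and 11.02 after 100 nm particles. Each 5 nm array was lower than its control, by -0.09, -0.14 and -0.12, a mean of -0.11 with a block interval of -0.17 to -0.06 and an adjusted p of 0.116 in limma with the block. It did not pass, except with the block and quantile normalization over the 9 arrays together. A dimmer probe set of TIMP3, not used in the test, differed by -0.89, 0.00 and -0.28. TIMP2, which also takes part in activating pro-MMP2 with MMP14, was at 11.29, 10.81 and 10.56 in controls and 11.27, 10.74 and 10.53 after 5 nm particles, lower in each number by -0.03, -0.07 and -0.03. Its adjusted p was 0.222 in limma with the block, and it passed with the block only without 5 nm replicate 2. TIMP1, a secreted inhibitor of most soluble metalloproteinases, was at 12.31, 11.80 and 11.91 in controls and 12.35, 11.97 and 11.91 after 5 nm particles, a difference of 0.04, 0.16 and 0.00. TIMP4 differed by 0.05 in replicate 3 and by 0.00 in the others.

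**Figure D2:**
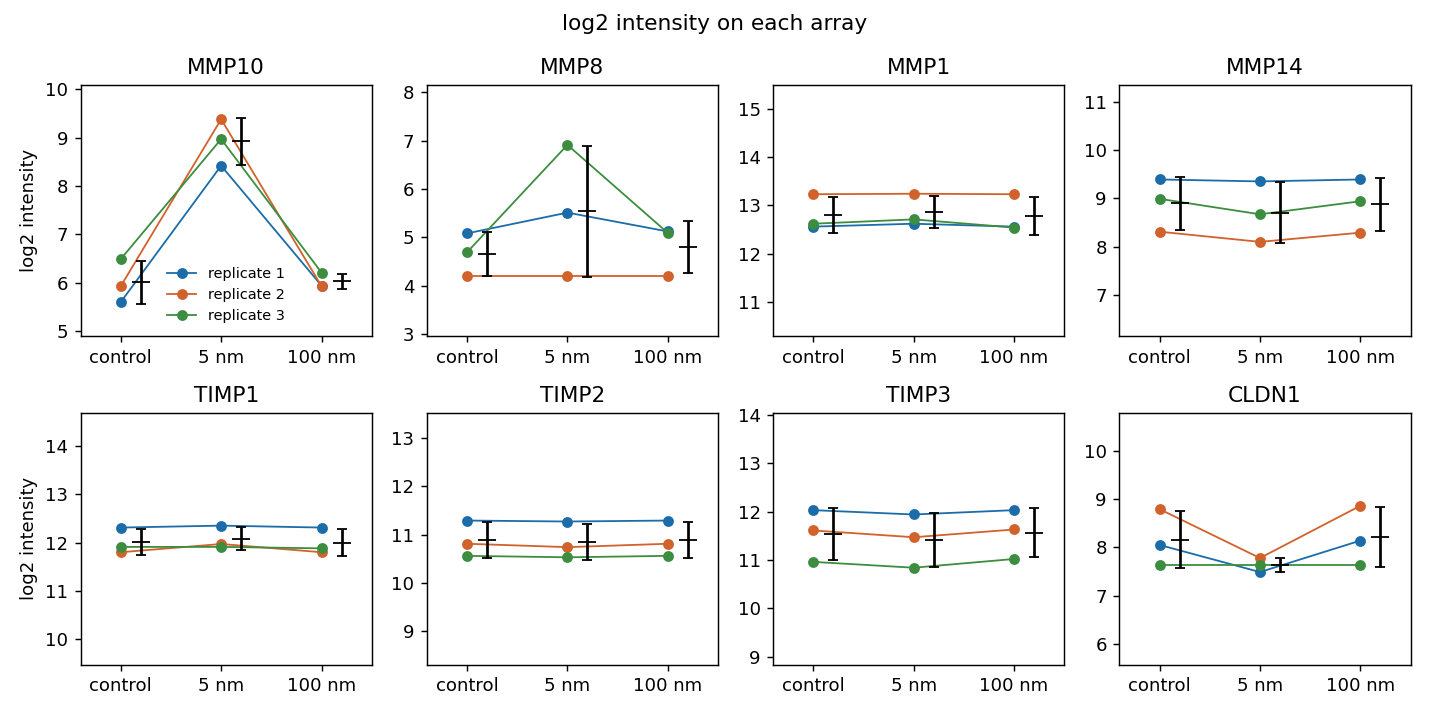
log2 intensity of MMP10 and 7 members on each array in unexposed, 5 nm and 100 nm cells, with lines joining arrays of the same replicate number and black bars giving the mean and SD of 3 arrays. Every panel spans the same number of log2 units. The 5 nm point of MMP10 is above its control in all 3 numbers, that of MMP8 stands out in replicate 3, and that of CLDN1 is lower in replicates 1 and 2 alone.

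ADAM17, the sheddase that releases tumour necrosis factor and several growth factors, was higher in each number after 5 nm particles, though nearly all of the difference came from replicate 2. Its log2 intensities were 9.08, 8.89 and 8.59 in controls, 9.14, 9.46 and 8.61 after 5 nm particles, and 9.03, 8.83 and 8.59 after 100 nm particles. The differences of 0.06, 0.57 and 0.02 averaged 0.22 (95% interval -0.36 to 0.80). ADAM10, the related sheddase that cuts Notch and cadherins, differed by 0.00, -0.10 and 0.08, and ADAM9 by -0.03, 0.00 and 0.01. The largest mean difference with an ADAM symbol was in ADAM20P1, a pseudogene, at 0.33 from 0.20, 0.00 and 0.78. Over the 14 tested, 6 were positive, 5 negative and 3 zero. The 7 tested ADAMTS symbols were 5 ADAMTS-like proteins, which lack a protease domain, a pseudogene and an antisense RNA, and lay between -0.06 and 0.05.

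Claudin symbols made up 21 of the 74, and 1 of them is an antisense RNA. CLDN1, a sealing claudin, was at 8.05, 8.79 and 7.64 in controls, 7.49, 7.78 and 7.64 after 5 nm particles, and 8.14, 8.86 and 7.64 after 100 nm particles. It was lower by -0.56 and -1.01 in replicates 1 and 2 and equal in replicate 3, a mean of -0.52 (95% interval -1.31 to 0.26; adjusted p = 1 in limma, 0.362 with the block). CLDN12, a claudin without the usual scaffold-binding end, was at 6.79, 5.65 and 5.87 in controls and 6.82, 6.39 and 5.99 after 5 nm particles. Its differences of 0.02, 0.74 and 0.13 averaged 0.30. CLDN5, the endothelial claudin, differed by 0.12, 0.00 and 0.00, and CLDN15, a pore-forming claudin, by -0.02, 0.29 and 0.00. CLDN10-AS1, an antisense RNA, was lower by -0.33, -0.35 and -0.05. In all, 13 of the 21 were positive, 4 negative and 4 zero, with a median of 0.01.

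Matrix and adhesion proteins of the remaining families were near 0. THBS1, a matrix glycoprotein that activates transforming growth factor beta, was at 12.78, 12.98 and 13.04 in controls, 12.63, 12.67 and 13.04 after 5 nm particles and 12.78, 13.02 and 13.04 after 100 nm particles, a mean difference of -0.15 that was absent in replicate 3. The 4 thrombospondins spanned -0.15 to 0.00. The 3 collagen symbols were 1 collagen, COL26A1, at exactly 0 in each number, and 2 antisense RNAs. The 4 integrin symbols held no integrin: they were ITGB1BP1, ITGB1BP2 and ITGB3BP, which bind integrin tails or take their name from doing so, and the antisense RNA ITGB2-AS1. ITGB2-AS1 had the largest mean difference of the 4, -0.06. CDH23 and CDH26 were the cadherins tested, with differences of 0.00 in each and at most 0.01 in any number. Laminins, serpins and the plasminogen activators with PLAUR were not analysed here, as no probe set carried their names.

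After 100 nm particles the differences spanned a narrower range over the 74 than after 5 nm particles, though not in every family. Positive mean differences were found for 18 of the 74, negative for 27 and exactly 0 for 29, which is 24.3%, 36.5% and 39.2%, in a range from -0.20 to 0.15. Over all genes the shares were 34.2%, 35.6% and 30.3%. None had groups that did not overlap (0.0329% of all genes), none was higher in all 3 numbers (1.25%) or lower in all 3 (1.41%), and none was past 0.5 in any number (1.09%). The extremes were ADAM20P1 at -0.20 and MMP8 at 0.15. The 3 collagen symbols were all negative, from -0.08 to -0.01, a wider range than the -0.03 to 0.00 after 5 nm particles, and the highest ADAMTS symbol, ADAMTSL3, was at 0.10, above the highest of 0.05 after 5 nm particles. The median was 0.00 for claudins, metalloproteinases, ADAMs and ADAMTS symbols, and TIMP2 was at 0.00 in each number. The 5 nm and 100 nm comparisons use the same 3 control arrays.

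MMP10 was then set against a chosen set of tested proteases rather than its own family alone. With lysosomal, serine and surface metalloproteases from lists chosen with earlier results known, 74 protease genes were compared, 26 of them members. The set does not hold every protease among the genes tested, and NAPSA, an epithelial marker here, is 1 left out. ADAM11, ADAM22 and ADAM23, which lack a working catalytic site, are among them. MMP10 was chosen as the comparison gene with earlier results of these data known, so its rank and call are descriptions and not a test. It ranked 1 of 74 in each number and was the only one of the 74 called. In replicate 1 the next was MMP8 at 0.42, in replicate 2 PAPPA2, a pregnancy-associated metalloprotease, at 0.98, and in replicate 3 MMP8 at 2.22. Those higher by at least 1 log2 unit numbered 1, 1 and 2. By mean difference the next after MMP8 were PAPPA2 at 0.51, the lysosomal peptidase TPP1 at 0.33, the mitochondrial serine protease HTRA2 at 0.28, ADAM17 at 0.22 and the lysosomal cathepsin CTSL at 0.14. At the other end were MMP14 at -0.19, and the carboxypeptidase CPA4 and the collagen-cutting cathepsin CTSK at -0.15 each.

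**Figure D3:**
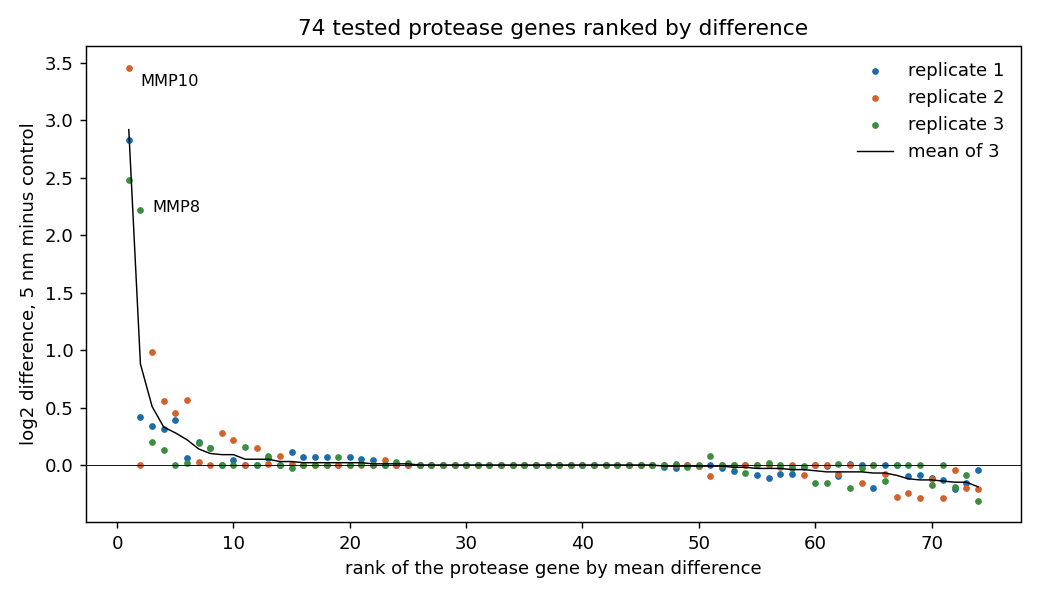
log2 difference between 5 nm and control cells for 74 tested protease genes, ordered by their mean, with a point for each replicate number and a line through the means. MMP10 at 2.92 is followed by MMP8 at 0.88, whose replicate 3 point at 2.22 lies away from its other points.

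Genes that work with these families were also taken from lists, and none of them was called. After 5 nm particles 0.074% of all genes were called, and 0.65% with the block. At shares this small, having no called gene is no trait of these lists. A list of stress genes, set beside them for comparison, did hold called genes. Of 25 tested matrix proteins outside the members, 3 were positive and 12 negative. FBN1, the microfibril protein fibrillin 1, was at 9.60, 9.11 and 9.05 in controls, 8.85, 7.56 and 8.76 after 5 nm particles and 9.56, 9.15 and 9.04 after 100 nm particles. Every 5 nm array lay below every control array, by -0.75, -1.55 and -0.29 within the numbers, a mean of -0.87 (adjusted p = 1 in limma, 0.306 with the block). Among all genes, 1.88% had 5 nm and control arrays that did not overlap, and FBN1 was named for the largest difference in its list. HSPG2, the basement membrane proteoglycan perlecan, was at -0.38 and AGRN, agrin, at -0.23. Of 14 genes for collagen folding and crosslinking 0 were positive and 10 negative. COLGALT1, which adds galactose to collagen, differed by -0.28, -0.47 and -0.21, the lysyl oxidases LOXL4 and LOXL2 by -0.12 and -0.10 on average.

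Of 16 integrin adhesion partners, 10 were positive and 3 negative, with a median of 0.08. FERMT2, kindlin 2, which activates integrins from inside the cell, was at 9.20, 8.78 and 8.86 in controls, 9.96, 9.87 and 9.50 after 5 nm particles, and 9.21, 8.76 and 8.80 after 100 nm particles. All 3 arrays of 5 nm cells lay above the others, by 0.76, 1.08 and 0.64 within the numbers, a mean of 0.83 (95% interval 0.32 to 1.34). FERMT2 too was named for the largest difference in its list, and 1.88% of all genes had 5 nm and control arrays that did not overlap. FERMT2 did not pass over all genes (adjusted p = 0.829 in limma, 0.068 with the block). FERMT3, kindlin 3, was at 0.23 and BCAR1, an adhesion scaffold, at -0.21. Of 15 junction partners 4 were positive and 8 negative, with PECAM1 at -0.18, ESAM at -0.14 and CGNL1 at -0.24.

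Of 19 lysosomal proteases and inhibitors 8 were positive and 8 negative, of 21 convertases and serine proteases 8 and 4, and of 12 genes for surface metalloproteases and an inhibitor 1 and 9. BMP1 and TLL1 stood in the last list and in the one for collagen folding. RECK, a membrane inhibitor of metalloproteinases, was at 7.22, 7.11 and 6.76 in controls and 6.76, 6.46 and 6.76 after 5 nm particles, lower by -0.46 and -0.65 in replicates 1 and 2 and equal in replicate 3. Of 10 protease-related genes known to follow AP-1 in other cells 2 were tested, the protease MMP1 at 0.05 and the inhibitor TIMP1 at 0.07, both members. The 12 stress genes were listed with earlier results of these data known, so their direction and calls are not a separate result. All were positive, with a median of 2.35. They gave 7 called genes without the block and 5 with it, against 0.074% and 0.65% of all genes. Among the 12 was HMOX1, the inducible heme oxygenase, at 3.61.

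**Figure D4:**
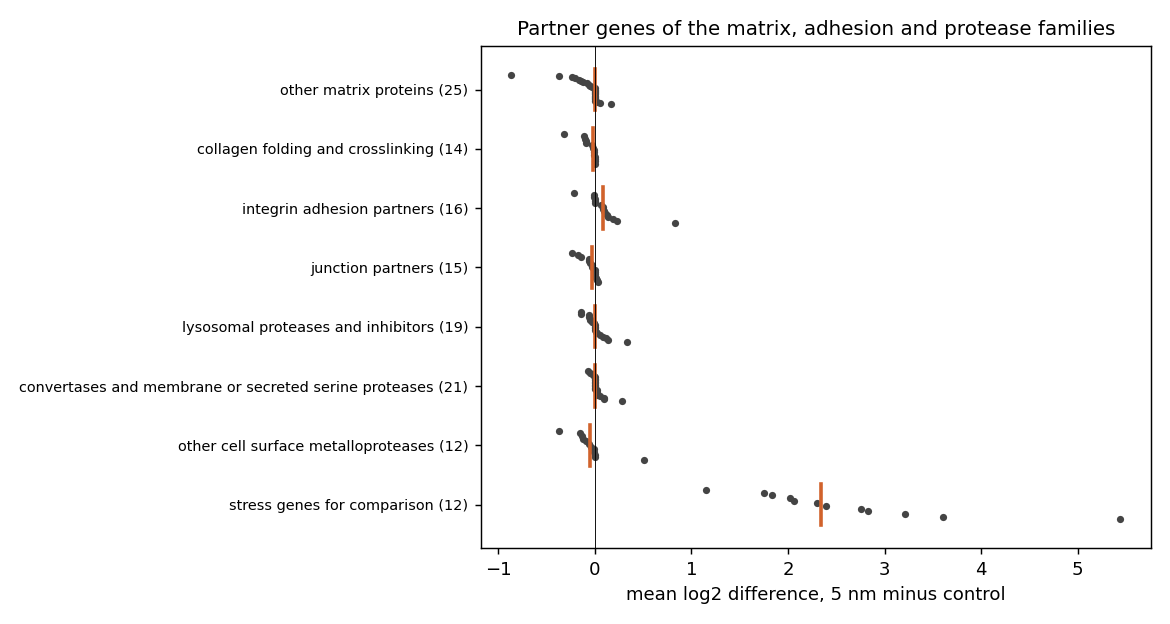
Mean log2 difference between 5 nm and control cells for each tested gene of 8 lists, with the number tested in brackets and an orange bar at the median of each list. The stress genes lie from 1.15 to 5.44, and in the other lists FERMT2 at 0.83 and FBN1 at -0.87 lie furthest from 0.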

How the data were processed

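The authors deposited log2 intensities for 53617 probe sets on 9 whole-transcript arrays. Per the submitters' processing notes these came from RMA, run with Affymetrix Expression Console 1.3.1. Per the labels' protocols, 300 ng of RNA was labelled for each array. A genome build is not stated. A platform annotation gave 1 symbol to 16098 probe sets, several to 0 and none to 37519 (70%). Groups were compared by limma 3.58.1 (lmFit and eBayes, R 4.3.3) on all 9 arrays with group means, 6 residual degrees of freedom and Benjamini-Hochberg adjusted p under 0.05 over 12155 genes, and were checked on simulated data. The number of arrays limits the precision.

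Deviations from group means correlated at 0.762 to 0.967 between arrays of the same number (9 pairs) and -0.582 to -0.265 otherwise, so the numbers pair the arrays. Fits with the number as a block are given for some genes and not for all. Intervals and p-values not said to come from the block ignore this pairing. Whether same-number arrays were normalized together is not stated.

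The members, the comparison gene MMP10, the lists and the naming rule were chosen with earlier results of these data known. Named genes were members past the threshold, the 10 largest differences each way with 1 sign in all numbers, the largest difference and the brightest member of each family, every tested MMP and TIMP, and up to 3 genes per list. Alternatives were other floors, probe set means, scalings, the block, a trended prior and leaving out each array.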

Additional observations from a re-analysis of the deposited data

How the results depend on the processing

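Across 35 alternatives per comparison, the count of members called stayed at 0 except with the replicate block and either quantile normalization over the 9 arrays, where 1 passed (TIMP3), or leaving out the 5 nm array of replicate 2, where 1 passed (TIMP2). Both exceptions held against control and against 100 nm cells, and the cause was not tested. Calls over all genes after 5 nm particles were 9 in the main analysis, 79 with the block, 0 with the block on the control and 5 nm arrays alone (2 residual degrees of freedom), 4 with arrays centred on their medians, 16 with quantile normalization, 15 with a floor of 6 and 15 without the 5 nm array of replicate 3. With the block, calls fell to 2 without control replicate 3 and rose to 446 without 5 nm replicate 3.

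The MMP10 difference kept its direction in every alternative. Its call was lost with centred arrays (2.90 against control, adjusted p = 0.0724 in limma; 2.88 against 100 nm cells, adjusted p = 0.0726 in limma) and with the block on 2 groups (2.92, adjusted p = 0.548; 2.90, adjusted p = 0.518 in limma). With the block it was also lost without control replicate 1, 2 or 3 (2.86, 2.79 and 3.11), without 5 nm replicate 1 (3.05), and without 100 nm replicate 1, 2 or 3 (2.92 each), against control. Against 100 nm cells those values were 2.90 for each control array, 3.03 for 5 nm replicate 1, and 3.08, 2.75 and 2.86 for the 100 nm arrays, and the call was also lost with the block and no floor (2.90, adjusted p = 0.0509) or a trended prior (2.90, adjusted p = 0.0538 in limma).

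Uncalled members changed sign in small differences. CDH26 turned to -0.01 under both scalings, ITGB1BP1 to 0.0034 under quantile normalization, TIMP4 to -0.0014 with centred arrays, and MMP25 to 0.05 with the mean of its probe sets. Leaving out 1 array without the block unbalances the numbers, which differ in level, and gave ranges of -0.25 to 0.23 for ADAM9, -0.31 to 0.14 for ADAMTSL5, -0.22 to 0.22 for CDH26, -0.57 to 0.12 for CLDN10-AS1, -0.02 to 0.22 for CLDN15, -0.25 to 0.18 for COL18A1-AS2, -0.24 to 0.24 for ITGB1BP1, -0.23 to 0.18 for ITGB2-AS1, -0.14 to 0.26 for MMP1, -0.51 to 0.11 for MMP14, -0.15 to 0.10 for MMP15, -0.20 to 0.16 for MMP16, -0.11 to 0.18 for MMP17, -0.05 to 0.11 for MMP23A, -0.21 to 0.26 for MMP24, -0.28 to 0.18 for MMP25, -0.07 to 0.22 for TIMP1, -0.25 to 0.16 for TIMP2, -0.40 to 0.17 for TIMP3 and -0.19 to 0.23 for TIMP4.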
